A study of Mus musculus with 16 samples.

Results

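The genes described here carry glutamate and glutamine across membranes or make glutamine from glutamate: the plasma membrane glutamate transporters *Slc1a1*, *Slc1a2* and *Slc1a3*, the vesicular glutamate transporters *Slc17a6*, *Slc17a7* and *Slc17a8*, glutamine synthetase *Glul*, and the glutamine transporters *Slc38a1* and *Slc38a3*. They were taken by symbol from the gene rows of all 8 matrices and are 9 of the 32285 genes counted, each found once. They were described across the neuronal and glial classes of the dentate gyrus (DG) and between genotypes within each class.

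RNA and open chromatin were sequenced together (Multiome) from nuclei of the microdissected, fresh-frozen mouse DG, with 1 library per mouse. There were 4 wild-type mice (WT, genotype VV) and 4 mice homozygous for the V321L allele (genotype LL), with 2 females (F1 and F2) and 2 males (M1 and M2) of each genotype. V321L is a single amino acid substitution, knocked into the germline, in the membrane-spanning part of neuregulin 1, a growth factor that also signals into the nucleus of the cell that carries it. The allele is present in every cell of the mutant mice, so a difference in 1 class cannot be assigned to that class, and the labels give no age or strain.

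At an excitatory synapse, vesicular transporters of the Slc17 family load glutamate into vesicles. After release, most glutamate is cleared by the astrocytic transporters GLT-1 (*Slc1a2*) and GLAST (*Slc1a3*), while EAAC1 (*Slc1a1*) takes it up into neurons. Astrocytes turn glutamate into glutamine with glutamine synthetase (*Glul*) and export glutamine through SNAT3 (*Slc38a3*), and neurons take it up through SNAT1 (*Slc38a1*) and related carriers and turn it back into glutamate.

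RefSeq promoter windows (mouse assembly GRCm38.p6, from 250 bases before to 50 bases after an annotated start) were found for 7 of the 9 genes. The 3 printed here are those overlapped by an ATAC peak in all 8 libraries, and they belong to genes with opposite patterns of openness described further on. Capitals mark the GC box (GGGCGG, or its reverse CCGCCC) and the CCAAT box (or its reverse ATTGG). All 3 lie on the + strand of the assembly and run 5′ to 3′, at chr1:153899679-153899978 for *Glul*, chr7:45163671-45163970 for *Slc17a7* and chr19:28834885-28835184 for *Slc1a1*.
Glul: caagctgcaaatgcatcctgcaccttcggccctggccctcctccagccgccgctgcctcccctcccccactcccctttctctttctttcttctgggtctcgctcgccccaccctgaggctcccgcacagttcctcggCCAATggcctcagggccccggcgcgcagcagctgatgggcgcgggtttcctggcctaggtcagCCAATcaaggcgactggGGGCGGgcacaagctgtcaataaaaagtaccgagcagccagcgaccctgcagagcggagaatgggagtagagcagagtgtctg
Slc17a7: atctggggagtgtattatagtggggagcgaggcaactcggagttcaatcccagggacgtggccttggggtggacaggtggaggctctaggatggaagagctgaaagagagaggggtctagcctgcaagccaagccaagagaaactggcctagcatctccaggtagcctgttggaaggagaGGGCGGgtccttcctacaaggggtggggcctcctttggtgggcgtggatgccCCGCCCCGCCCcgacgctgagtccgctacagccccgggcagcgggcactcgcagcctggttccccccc
Slc1a1: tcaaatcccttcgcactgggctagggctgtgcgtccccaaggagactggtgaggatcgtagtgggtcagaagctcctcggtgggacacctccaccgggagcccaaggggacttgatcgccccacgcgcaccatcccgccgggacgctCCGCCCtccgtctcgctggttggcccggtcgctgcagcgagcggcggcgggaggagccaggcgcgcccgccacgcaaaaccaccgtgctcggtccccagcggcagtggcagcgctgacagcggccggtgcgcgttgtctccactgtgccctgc
The *Glul* window holds 1 GC box and 2 CCAAT boxes, that of *Slc17a7* holds 3 GC boxes, of which 2 overlap by a base, and that of *Slc1a1* holds 1. Among all 32851 windows of the same length, 35.7% hold a GC box and 37.4% a CCAAT box, so neither sets these genes apart. The G and C share of the windows was 64.3% for *Glul*, 63.7% for *Slc17a7* and 70.3% for *Slc1a1*, with 17, 13 and 32 CpG pairs, against medians of 52.7% and 7 over all windows. A match of letters is a description and not a bound site.

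After filtering, 16406 nuclei remained, and 161 of their 16244 distinct barcodes occurred in more than 1 library. The median nucleus held 1096 to 1923 UMIs (counted RNA molecules) in WT and 2680 to 4146 in V321L libraries, and the median mitochondrial share was 0.0693% to 0.128% in WT and 0.390% to 1.17% in V321L, so depth and mitochondrial share separated the genotypes without overlap and cannot be told apart from genotype. All 8 libraries matched their labelled sex. Nuclei were clustered without the 9 genes, and clusters were named from marker genes. The granule cells (GCs) of the genotypes lay mostly in different clusters: 2633, 1907 and 1605 WT against 223, 326 and 81 V321L GCs in 3 clusters led by *Glis3* or *Chst9*, and 459 and 66 against 1649 and 1847 in 2 clusters led by *C1ql2*. The astrocyte or radial glia class had 14 to 157 nuclei per WT mouse and 62 to 183 per V321L mouse. Its summed astrocyte markers, none of which is among the 9 genes, reached 17676 to 25075 CPM (UMIs scaled to 1000000 per class and mouse) in WT and 13491 to 16637 in V321L. A cluster of 194 nuclei, 184 of them WT, with mixed markers was left unnamed by a limit set after its values were seen.

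The levels below are CPM of the UMIs summed over the nuclei of a class in each mouse, given for mice with at least 5 nuclei. They are compared between classes for 1 gene at a time, since CPM are not scaled to transcript length. The classes were named from RNA of the same nuclei, so the order of classes is a description with no test. Genotypes were compared with edgeR's quasi-likelihood test over all genes of a class that passed its filter on low counts, with TMM scaling and Benjamini-Hochberg adjustment at 0.05. A log2 fold change is V321L minus WT on the TMM scale, which can differ from the ratio of the CPM. "Rose" and "fell" are used only of genes that passed this test.

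The background is large. In GCs 70.4% of 12358 genes tested were called in either direction, in the other excitatory neurons 50.5% of 8256, in GABAergic neurons 36.7% of 3713, in astrocytes or radial glia 42.8% of 2456 and in oligodendrocyte precursor cells (OPCs) 23.1% of 1409. Oligodendrocytes, tested without WT M1, which had 6 of them, gave 32.4% of 2259 (a comparison added after the data were seen). The 9 genes gave 2 higher and 1 lower call among 6 tested in GCs, 2 and 2 among 7 in the other excitatory neurons, 1 and 0 among 3 in GABAergic neurons, 2 and 0 among 5 in astrocytes or radial glia, 1 and 0 among 3 in OPCs, and 1 and 1 among 3 in oligodendrocytes. With 3 to 7 of the genes tested per class, set against these backgrounds, such counts are no result about the genes, and what follows is the size and the pattern of each gene's values.

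Genotype effects moved with the length of the gene. In GCs the median log2 fold change was 1.17 over 4652 genes spanning under 20 kb, of which 70.6% were called higher, and was -0.83 over 1985 genes spanning more than 100 kb, of which 80.4% were called lower. In astrocytes or radial glia the medians were 2.43 over 391 short genes and -0.40 over 1008 long ones. Ribosomal protein genes, which are short, had median log2 fold changes of 4.00 in GCs and 4.02 in astrocytes or radial glia. Of the 9 genes, *Glul* (9.80 kb), *Slc17a7* (12.2 kb) and *Slc38a3* (17.8 kb) are the short ones, and *Slc1a2* (133 kb) is the only one over 100 kb. The part of depth, mitochondrial share and gene length in the differences between genotypes was not tested.

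**Figure D1:**
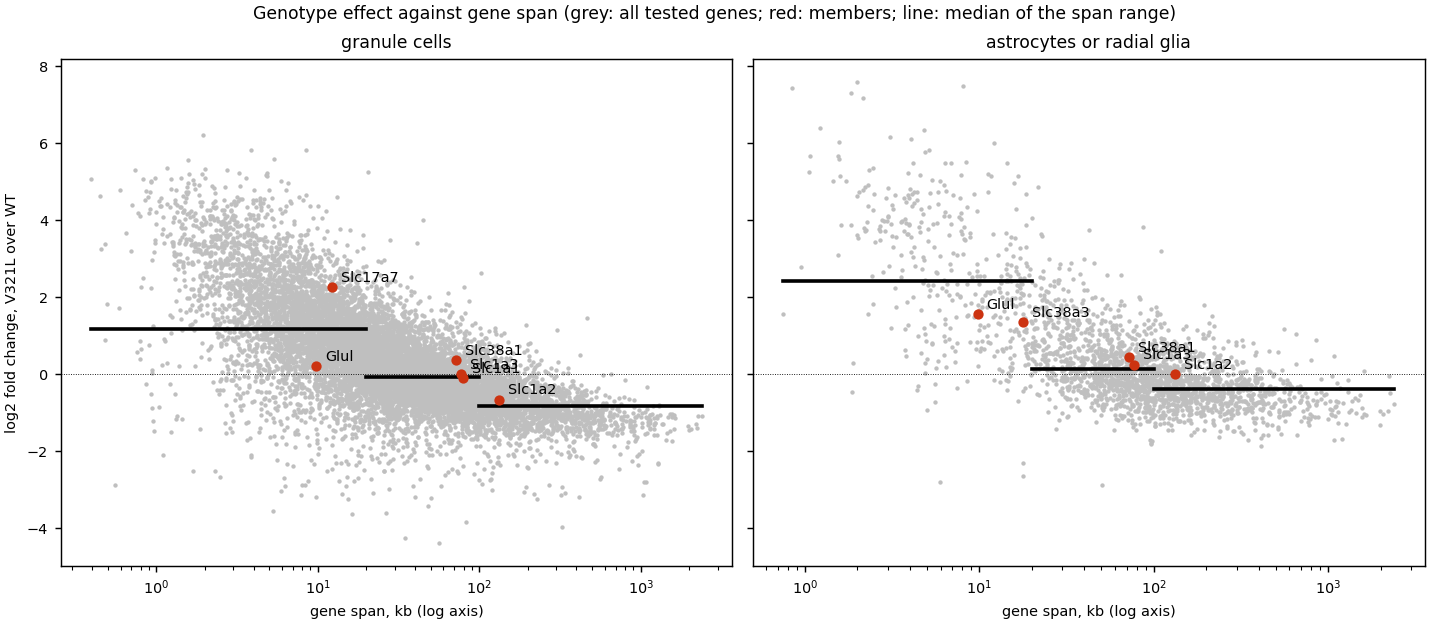
Log2 fold change (V321L over WT) of every tested gene against its genomic span in kb (log axis), in GCs (left) and in astrocytes or radial glia (right), with the 9 genes in red where tested and black lines at the median of each span range. In GCs *Slc17a7* (2.26) lies above the median of genes under 20 kb (1.17), and in astrocytes or radial glia *Glul* (1.56) lies below it (2.43).

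*Slc1a2* was highest in astrocytes or radial glia. Its level there was 9408, 8792, 6628 and 7698 CPM in the WT mice F1, F2, M1 and M2, and 6356, 7780, 8421 and 6139 CPM in the V321L mice. The mean over 8 mice, 7653 ± 1196 CPM (SD), was 17.7-fold that of the next class, neuroblasts or immature neurons (431 ± 177 CPM), and higher in 8 of 8 mice. Thinned to 500 UMIs per nucleus, so that depth is equal, 94.1% ± 3.6 of these nuclei in WT and 94.6% ± 3.0 in V321L (SD, n = 4 each) had a UMI of *Slc1a2*, against 8.10% ± 0.98 and 7.09% ± 2.11 of GCs. The genotypes overlapped, and the log2 fold change was -0.00 (SE 0.19, edgeR adjusted p = 0.992), against a median of -0.40 for genes over 100 kb.

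Among the excitatory neurons the level of *Slc1a2* differed by subclass. In CA3 neurons it was 498 CPM over all WT nuclei (95% Poisson interval 471 to 527; mice 451 to 529) and 440 CPM in V321L (405 to 477; mice 143 to 499.6). In the other pyramidal neurons it was 390 CPM (334 to 453) and 393 CPM (363 to 425) (mice 290.1 to 563 and 383 to 745), so the mice of both subclasses overlapped. In CA1 neurons it was 176 CPM (130 to 234; mice 68.7 to 279) and 69.6 CPM (54.5 to 87.7; mice 47.3 to 83.0), and the mice overlapped there too. These intervals cover counting error only. Over all other excitatory neurons *Slc1a2* fell, from 438, 431, 434 and 400 CPM in WT to 297, 200, 371 and 370 CPM in V321L, with no overlap (log2 fold change -0.81, SE 0.20, edgeR adjusted p = 0.00679). The makeup of that class differed between the genotypes, with 802 CA3, 126 CA1, 111 mossy and 239 other pyramidal nuclei in WT and 263, 195, 4 and 324 in V321L, and its part in the fall was not tested. The same upper limits on UMIs and genes per nucleus were used for all libraries. The class had a median of 2284.5 UMIs in WT and 5282 in V321L. Mossy nuclei held 2.29 times, and the larger CA3 cluster 1.78 times, the median of their libraries. The part of the upper limits in these counts of nuclei was not tested. The call of *Slc1a2* in this class was lost with library sizes as the only scaling, after thinning to 500 UMIs and after subtracting free RNA. Free RNA could give at most 174 of the 426 CPM in WT and 35.2 of the 309 CPM in V321L, a limit that is loose, as described below. After subtraction the means were 265 ± 50 CPM in WT and 289 ± 79 CPM in V321L (SD, n = 4 each), so V321L was no longer lower.

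In GCs *Slc1a2* also fell (log2 fold change -0.66, SE 0.16, edgeR adjusted p = 0.00183), though in CPM the mice overlapped: 170, 199, 163 and 167 in WT and 169, 119, 135 and 186 in V321L. With library sizes alone the log2 fold change was -0.21 and was not called. RNA free in the droplets was read from barcodes of 100 UMIs or fewer. That RNA held *Slc1a2* at 2927 ± 1049 CPM in WT and 741 ± 146 CPM in V321L (SD, n = 4 each). The most that it could give WT GCs, 365 CPM, exceeded the observed 175 ± 16 CPM, whereas in V321L GCs it was 57.5 of 152 ± 31 CPM. The limit is loose: by it free RNA could give WT GCs 143 CPM of *Glul*, where 26.3 CPM were observed. A level under it is not shown to be free RNA, so this limit does not settle whether WT GCs express *Slc1a2*. In oligodendrocytes *Slc1a2* fell from 171, 395 and 393 CPM in WT F1, F2 and M2 to 81.4, 62.0, 40.7 and 88.4 CPM in V321L (log2 fold change -2.20, SE 0.40, edgeR adjusted p = 0.000164). Averaged over 4 mice per genotype, free RNA could give up to 1004 CPM in WT and 92.5 CPM in V321L there. The mean levels of the same mice, WT M1 included, were 240 and 68.1 CPM. The highest share of free RNA ran from 2.25% to 24.5% over the V321L mice, so the mean limit does not hold for each mouse. That call was lost with the marker gate per nucleus (edgeR adjusted p = 0.0501) and kept in 14 of the 15 alternatives that tested the gene. *Glul* was tested in 18 in this class. *Slc1a2* had no test there after thinning, after free-RNA subtraction and with a mitochondrial share under 1%. After that subtraction its mean was 0 CPM in WT and 9.68 CPM in V321L.

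**Figure D2:**
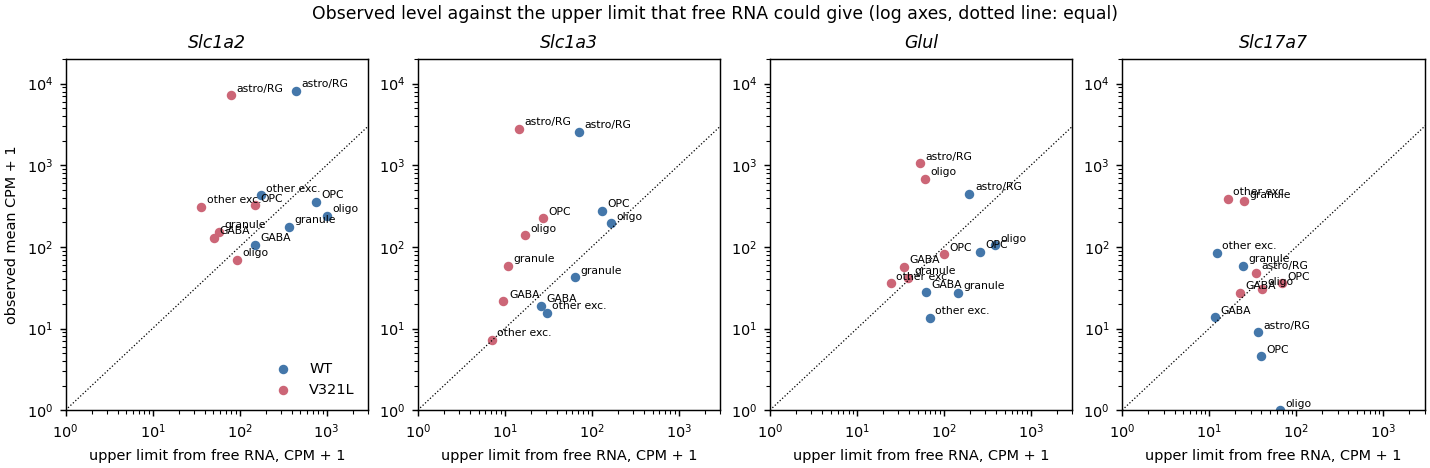
Observed mean CPM plus 1 of *Slc1a2*, *Slc1a3*, *Glul* and *Slc17a7* in 6 classes (points, labelled; blue WT, red V321L) against the upper limit in CPM plus 1 that free RNA could give that class, on log axes; the dotted line marks equality. Points of WT GCs for *Slc1a2* (175 against 365), *Slc1a3* (41.3 against 62.5) and *Glul* (26.3 against 143) lie under the line, and those of astrocytes or radial glia lie above it.

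*Slc1a3* had the same leading class. There it was at 3485, 2746, 1607 and 2414 CPM in WT and at 2620, 3083, 2745 and 2772 CPM in V321L, and the lowest value, WT M1, rests on 16 UMIs in 14 nuclei. The genotypes overlapped, with a log2 fold change of 0.25 (SE 0.21, edgeR adjusted p = 0.342). With the unnamed mixed cluster kept in the class, it was 0.97 and was called (edgeR adjusted p = 0.0122). Over both genotypes vascular cells came next (477 ± 342 CPM, n = 7), 5.63-fold lower and below in 7 of 7 mice. That place was held in V321L, where vascular cells were at 679 ± 313 CPM, microglia at 373 ± 96 CPM and OPCs at 222 ± 39 CPM. In WT, vascular cells (207 ± 115 CPM, 8 UMIs in 3 mice) lay below microglia (285 ± 113 CPM) and OPCs (276 ± 208 CPM), and under the 235 CPM that free RNA could give them.

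*Slc1a2* and *Slc1a3* were found together in 70.7% of WT and 65.3% of V321L astrocytes or radial glia at 500 UMIs per nucleus, and in 0.246% and 0.216% of GCs. Among astrocytes or radial glia with *Slc1a2*, 74.4% in WT and 69.6% in V321L had *Slc1a3*, close to its share of all of them (73.6% and 69.1%). In GCs *Slc1a3* was 35.9, 48.7, 35.3 and 45.4 CPM in WT and 53.2, 54.7, 59.3 and 62.3 CPM in V321L, without overlap. Free RNA could give up to 62.5 CPM in WT GCs and 9.89 CPM in V321L GCs, so only the V321L level is above that limit. The limit for WT GCs is loose, as above, and does not show that level to be free RNA. On the TMM scale its log2 fold change in GCs was -0.01 (SE 0.15, edgeR adjusted p = 0.973), and with library sizes alone it was 0.46 and was called. In the other excitatory neurons *Slc1a3* was 16.4, 20.5, 12.1 and 9.46 CPM in WT and 7.28, 4.10, 1.41 and 12.5 CPM in V321L, from 2 to 32 UMIs per mouse. *Slc1a3* fell in that class by the test (log2 fold change -1.67, SE 0.52, edgeR adjusted p = 0.0212). Free RNA could give up to 29.3 CPM in WT, above each WT value, so this limit does not show expression there. It is loose there too, as it allows 68.2 CPM of *Glul* in WT, where 12.6 CPM were observed. The call was lost without V321L F2, with doublets kept and with library sizes alone. It was kept in 11 of the 14 alternatives that tested the gene, where *Slc17a7* was tested in 20. After free-RNA subtraction the mean was 0 CPM in WT and 1.20 CPM in V321L.

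*Slc1a1* was highest in OPCs, followed by neurons. Over both genotypes the order was OPCs (240 ± 73 CPM), GCs (146 ± 21 CPM) and other excitatory neurons (102 ± 32 CPM), and each stood above the next in 8 of 8 mice. That place of other excitatory neurons does not hold for each subclass. Over all nuclei, CA1 neurons were at 125 CPM in WT and 191 CPM in V321L, where GCs were at 128 and 166 CPM. CA3 neurons were at 69.6 and 91.9 CPM and other pyramidal neurons at 87.2 and 99.2 CPM. With the marker gate per nucleus OPCs were at 157 ± 82 CPM, closer to the ungated level of GCs. The level of GCs under that gate is not given, so the order under it is not known here. GABAergic neurons (88.1 ± 37.7 CPM) followed, and were lower than other excitatory neurons in 6 of 8 mice. In astrocytes or radial glia, with 0 to 2 UMIs per mouse, it was barely detected. In OPCs it was 175, 157, 284 and 133 CPM in WT and 303, 302, 307 and 259 CPM in V321L, where only WT M1 (5 UMIs) reached the V321L range. The OPC class also held newly formed oligodendrocyte markers at 382 to 676 CPM in WT and 1104 to 2099 CPM in V321L, without overlap, and their part in the difference was not tested.

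*Slc1a1* rose in OPCs (log2 fold change 1.04, SE 0.31, edgeR adjusted p = 0.0145), a call lost with DESeq2, with no filter on low counts, and without WT F2 or WT M2. That call was kept in 15 of the 19 alternatives that tested the gene. In GCs its CPM were 133, 122, 127 and 132 in WT and 155, 185, 158 and 155 in V321L, without overlap. On the TMM scale the log2 fold change was nonetheless -0.10 (SE 0.10, edgeR adjusted p = 0.397), and with library sizes alone it was 0.34 and was called. The direction for this gene in GCs therefore turns with the scaling, where the median over all genes moved from 0.113 to 0.559.

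**Figure D3:**
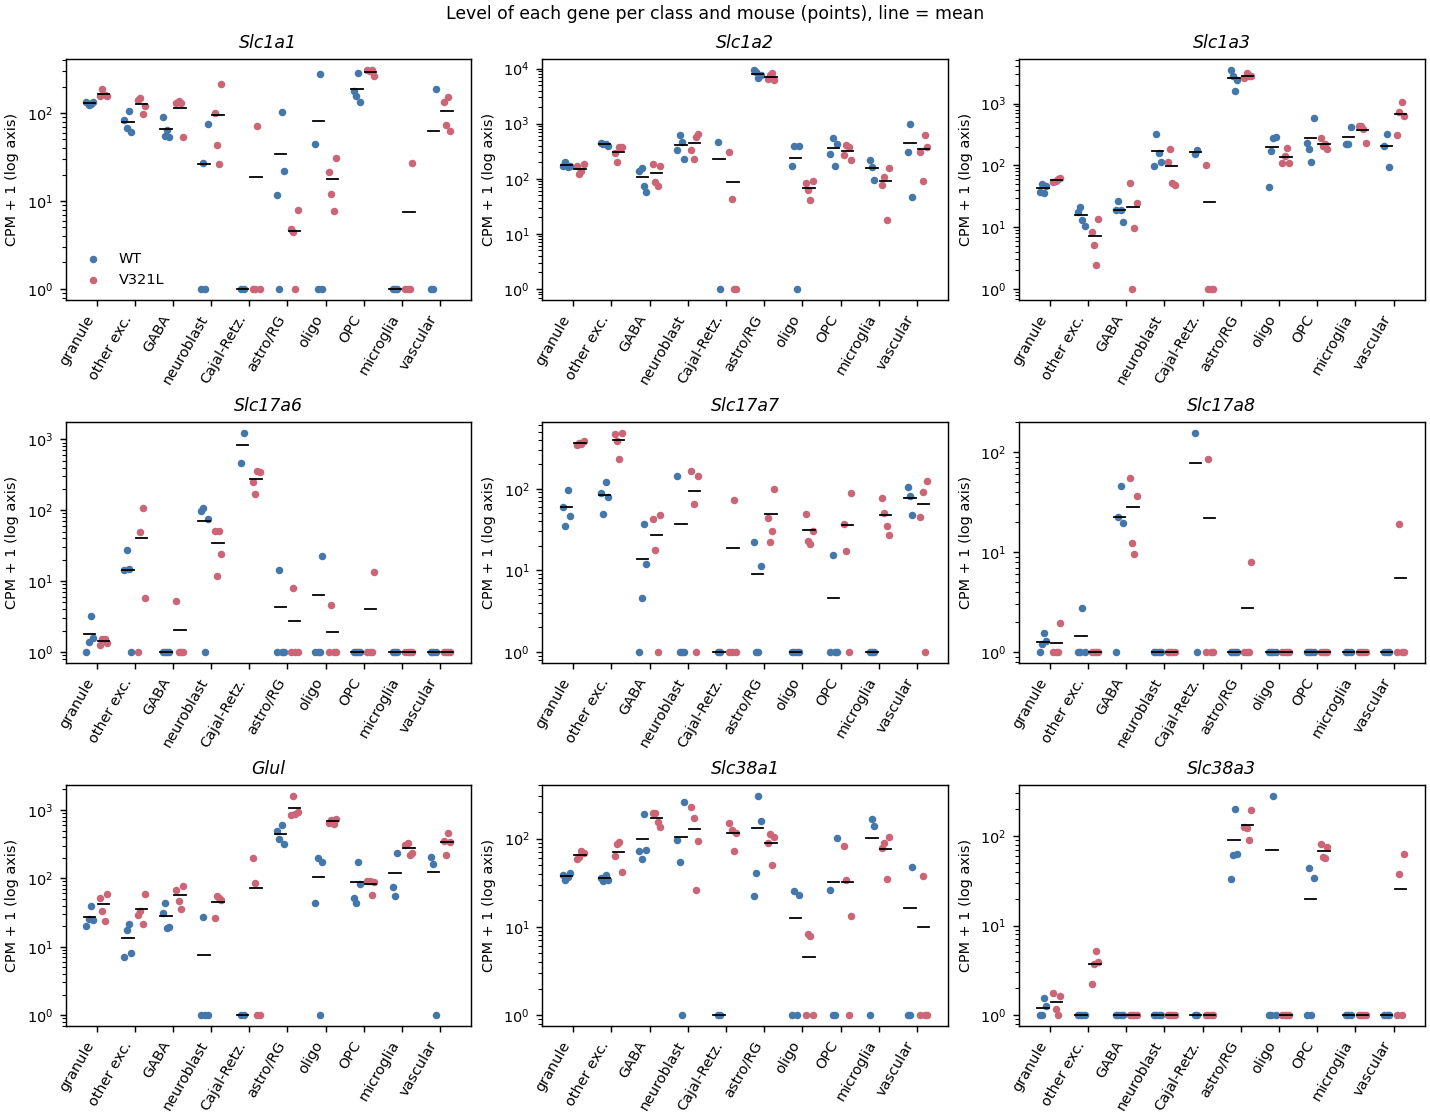
Level of each of the 9 genes as CPM plus 1 (log axis) in the 10 classes, with 1 point per mouse (blue WT, red V321L; mice with at least 5 nuclei) and a black line at the mean of each genotype. *Slc1a2*, *Slc1a3*, *Glul* and *Slc38a3* peak in astrocytes or radial glia, *Slc1a1* in OPCs, *Slc17a7* in the excitatory neurons and *Slc17a6* in Cajal-Retzius cells.

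*Slc17a7* (VGLUT1), the vesicular transporter of cortical and hippocampal excitatory neurons, had the largest log2 fold change of the 6 genes tested in GCs. It was 57.9, 33.5, 95.2 and 45.4 CPM in WT GCs and 342, 357, 349 and 388 CPM in V321L GCs. Every V321L mouse stood above every WT mouse. *Slc17a7* rose with a log2 fold change of 2.26 (SE 0.20, edgeR adjusted p = 2.51e-06), and the call held in 20 of 20 alternatives, over which it ranged from 2.07 to 2.84. Of the 4652 genes under 20 kb in GCs, 20.5% had a larger log2 fold change.

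At 500 UMIs per nucleus, 3.33% ± 1.89 of WT GCs (range 1.92% to 5.96%) and 16.2% ± 1.5 of V321L GCs (14.5% to 17.8%; SD, n = 4 each) had a UMI of *Slc17a7*. The 2-sided exact permutation test gave p = 0.0286, the smallest that 4 against 4 mice allow. The share of GCs was tested for 9 genes, of which 2 had an unadjusted exact p under the threshold and 0 passed after adjustment for the 9 tests. Both were at the smallest possible p, which adjusts to 0.129 in this permutation test, so they could not have passed. Without thinning, 644 of 6919 WT and 2911 of 4165 V321L GCs had one. In astrocytes or radial glia, which should lack the gene, the thinned shares were 0.298% ± 0.595 and 1.95% ± 1.01, so the GC shares lay above that background in both genotypes. The median depth before thinning was 1050 to 1925 UMIs per WT and 3148 to 4652 per V321L GC, and 660 to 891 and 1236 to 1887 UMIs in astrocytes or radial glia. Free RNA carried *Slc17a7* at 164 ± 41 CPM in WT and 295 ± 17 CPM in V321L, and could give at most 23.3 CPM of the WT and 24.2 CPM of the V321L level in GCs.

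*Slc17a7* also rose in the other excitatory neurons. It was 86.5, 47.4, 119 and 79.3 CPM in WT and 467, 380, 231 and 479 CPM in V321L, again without overlap (log2 fold change 1.91, SE 0.29, edgeR adjusted p = 0.000456; called in 20 of 20 alternatives). The genotypes were also apart inside the subclasses with enough nuclei. In CA3 neurons the mouse values were 55.1 to 134 CPM in WT and 505 to 570 CPM in V321L, and in CA1 neurons 0 to 91.6 CPM and 349 to 422 CPM. Averaged over 8 mice, the level in other excitatory neurons (236 ± 181 CPM) was 1.13-fold that in GCs (209 ± 162 CPM), higher in 7 of 8 mice, and within a genotype the classes lay close together.

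*Slc17a6* (VGLUT2), typical of subcortical and early-born glutamatergic neurons, was near absent from GCs: 8 UMIs among 13616973 in WT and 7 among 16518381 in V321L. It was highest in Cajal-Retzius cells, early-born neurons of the outer layer. There it was 463 and 1222 CPM in WT F1 and F2 and 249, 167, 354 and 342 CPM in V321L, from 3 to 7 UMIs per mouse, and it was above neuroblasts or immature neurons in 6 of 6 mice. Among excitatory neurons it was carried by the other pyramidal subclass, with 117 CPM in WT (95% Poisson interval 87.1 to 154) and 115 CPM in V321L (99.3 to 133), against 1.59 CPM and 0 UMIs in CA3 neurons.

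Summed over all other excitatory neurons *Slc17a6* was 13.4, 26.9, 13.8 and 0 CPM in WT and 0, 47.9, 105 and 4.82 CPM in V321L. The genotypes overlapped, and the log2 fold change was 1.09 (SE 1.22, edgeR adjusted p = 0.486). *Slc17a6* and *Slc17a7* were seen in the same nucleus in 89 of 786 V321L and 4 of 1278 WT other excitatory neurons at full depth, and in 2 and 1 of them at 500 UMIs. At full depth *Slc17a6* was in 15.5% of V321L nuclei with *Slc17a7* and in 16.5% of all. In WT it was in 1.74% (the 4 nuclei with both) and 3.21%, so over the pooled class neither share was higher among nuclei with *Slc17a7*. These shares pool mice and subclasses that differ in the level of *Slc17a6*. They do not show whether the genes go together within a subclass.

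*Slc17a8* (VGLUT3), which marks subsets of interneurons, was found in GABAergic neurons and Cajal-Retzius cells. In GABAergic neurons it was 0, 21.6, 45.1 and 18.5 CPM in WT and 54.2, 11.3, 8.57 and 35.3 CPM in V321L, from 0 to 13 UMIs per mouse, and it did not pass the filter on low counts. Most of these UMIs were in interneurons with markers of the caudal ganglionic eminence (CGE) (33.7 CPM in WT and 46.4 in V321L, against 13.5 and 3.72 in those with markers of the medial one (MGE)). No UMI was found in neuroblasts or immature neurons, oligodendrocytes, OPCs or microglia, and 3 were found in the GCs of each genotype. Over the 16518381 UMIs of V321L GCs this leaves 0.182 CPM (95% Poisson interval 0.0375 to 0.531).

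*Glul*, the enzyme that makes glutamine from glutamate and ammonia, was highest in astrocytes or radial glia (755 ± 410 CPM over 8 mice). Over both genotypes it stood 1.92-fold above oligodendrocytes, and above them in 8 of 8 mice. The order behind astrocytes or radial glia differed by genotype: oligodendrocytes (682 ± 56 CPM), vascular cells (341 ± 98 CPM) and microglia (273 ± 55 CPM) in V321L, but 104 ± 97, 123 ± 109 and 120 ± 97 CPM in WT, where the 3 classes were within their spread of each other. In astrocytes or radial glia *Glul* was 485, 381, 603 and 321.2 CPM in WT and 841, 1590.2, 872 and 942 CPM in V321L. Every V321L value was above every WT value, and V321L F2 stood apart above the rest. *Glul* rose with a log2 fold change of 1.56 (SE 0.24, edgeR adjusted p = 3.68e-06), and the call held in 21 of 21 alternatives, with 1.32 to 2.03 as the range. Of the 391 genes under 20 kb tested in this class, 68.8% had a larger log2 fold change, so the rise of *Glul* was smaller than that of most short genes. Clustered at a finer resolution, the class fell into a cluster of 25 WT and 457 V321L nuclei and one of 318 WT and 45 V321L nuclei, and the part of that split in the rise was not tested.

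At 500 UMIs, 17.2% ± 5.5 of WT (range 9.30% to 21.4%) and 39.8% ± 9.7 of V321L astrocytes or radial glia (27.4% to 51.0%; SD, n = 4 each) had a UMI of *Glul*. The 2-sided exact permutation test gave p = 0.0286, the smallest possible. Of the 9 genes so tested in this class, *Glul* alone had an unadjusted exact p under the threshold, and 0 passed after adjustment. The smallest possible p in 1 gene alone adjusts to 0.257 in this permutation test, so *Glul* could not have passed. Without thinning the counts were 104 of 341 and 351 of 501 nuclei. In GCs, which should lack the enzyme, the thinned shares were 1.295% ± 0.70 and 2.28% ± 1.31. Free RNA could give at most 196 of the 448 ± 124 CPM in WT and 51.7 of the 1062 ± 355 CPM in V321L.

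In oligodendrocytes *Glul* was 42.9, 198 and 175 CPM in WT F1, F2 and M2 (1, 8 and 8 UMIs) and 645, 722, 624 and 737 CPM in V321L. The groups did not overlap, and *Glul* rose with a log2 fold change of 2.29 (SE 0.32, edgeR adjusted p = 9.1e-06; called in 18 of 18 alternatives). Of the 369 genes under 20 kb tested in oligodendrocytes, 55.8% had a larger log2 fold change, and their median was 2.67. Free RNA could give up to 384 CPM in WT, above the level observed, and 59.3 CPM in V321L. The WT level is thus not shown to exceed free RNA, while that of V321L lies above the limit. The V321L oligodendrocytes also held newly formed oligodendrocyte markers at 672 to 1187 CPM, against 0 to 519 CPM in WT, and their part in the rise was not tested.

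In GCs *Glul* lay near or under the limit that free RNA allows. It was 26.3 ± 8.2 CPM in WT GCs and 40.7 ± 15.9 CPM in V321L GCs, where free RNA could give up to 143 and 38.1 CPM, and its log2 fold change was 0.21 (SE 0.28, edgeR adjusted p = 0.527). The genotype effect on *Glul* in astrocytes or radial glia was set against that in GCs. The class difference within each mouse was compared between WT and V321L mice. The difference of the genotype effects was 1.43 on the log2 scale (SE 0.27, edgeR adjusted p = 7.23e-05). By that test 3.55% of 11387 genes were called, and the median difference over all genes was 0.632. With library sizes alone it was 0.63 and was not called (edgeR adjusted p = 0.438). Since *Glul* in GCs lies under the limit from free RNA in WT and close to it in V321L, its expression there is not shown. The test is therefore not read as a difference between classes that express the gene. None of the other 6 genes that could be tested passed, and the lowest adjusted p by edgeR among them was 0.0878 for *Slc1a2* (difference 0.90, SE 0.32).

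**Figure D4:**
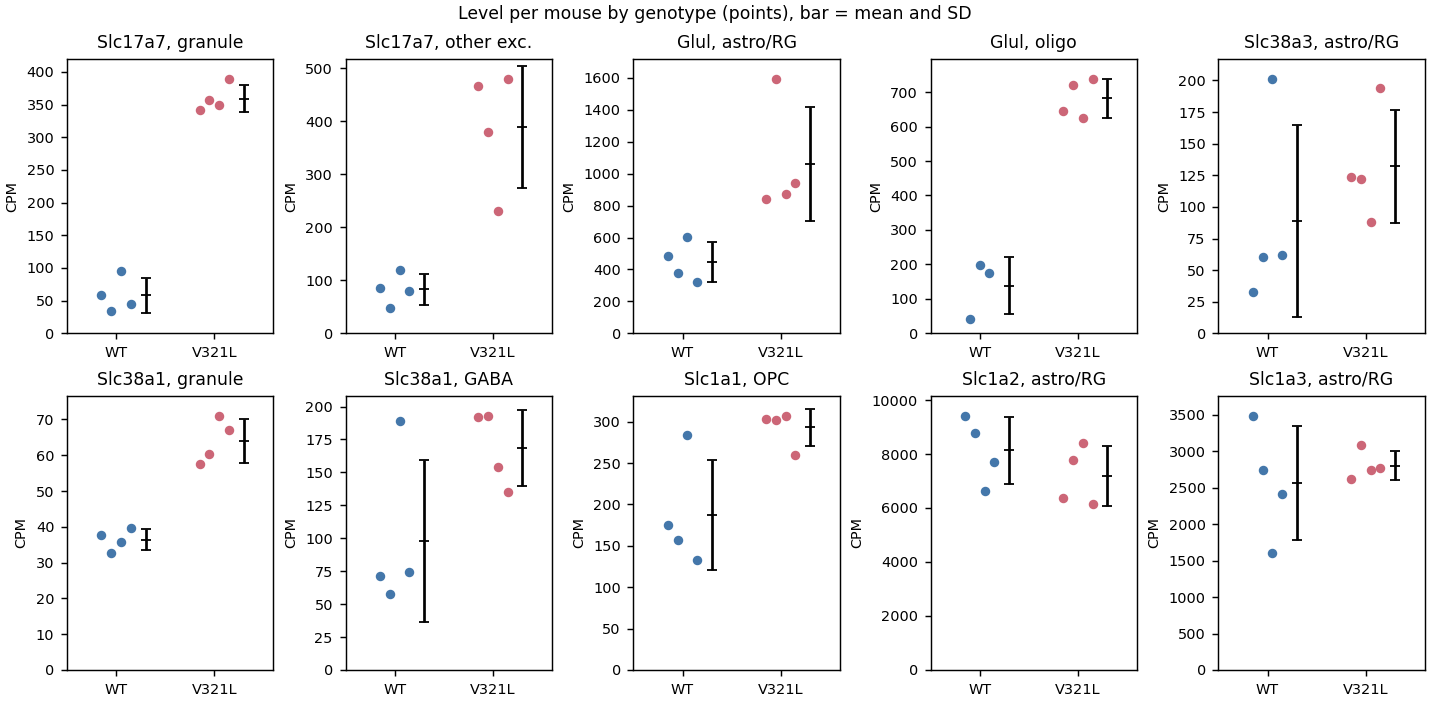
Level in CPM per mouse (points; blue WT, red V321L) with mean and SD (bars) for 10 pairs of gene and class, WT M1 being left out of oligodendrocytes, where it had 6 nuclei. For *Slc17a7* in GCs and other excitatory neurons, *Glul* in astrocytes or radial glia and in oligodendrocytes, and *Slc38a1* in GCs every V321L mouse lies above every WT mouse, while *Slc1a2* and *Slc1a3* in astrocytes or radial glia overlap.

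*Slc38a3* (SNAT3), through which astrocytes release glutamine, was highest in astrocytes or radial glia (110 ± 62 CPM), 2.57-fold above OPCs and higher in 8 of 8 mice. No UMI of it was found in GABAergic neurons, neuroblasts or immature neurons, Cajal-Retzius cells or microglia. In that class it was 32.4, 60.1, 201 and 62.2 CPM in WT (3, 9, 2 and 6 UMIs) and 123, 122, 88.2 and 194 CPM in V321L (32, 35, 9 and 28 UMIs). WT M1, with the fewest nuclei, lay above every V321L mouse, and the other 3 WT mice lay below all of them. *Slc38a3* rose (log2 fold change 1.35, SE 0.38, edgeR adjusted p = 0.00421), and the call was lost without WT F1 (adjusted p = 0.0517). The call was kept in 18 of the 19 alternatives that tested the gene. *Slc38a3* is a short gene, and 72.1% of the 391 genes under 20 kb in this class had a larger log2 fold change. Its thinned share of nuclei was 6.25% ± 5.90 and 6.46% ± 2.62.

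*Slc38a1* (SNAT1), a glutamine carrier of neurons, was spread widely, with GABAergic neurons first (133 ± 58 CPM) but above neuroblasts or immature neurons in only 5 of 8 mice. In GABAergic neurons it was 71.0, 57.6, 189 and 74.0 CPM in WT and 192, 193, 154 and 135 CPM in V321L. WT M1 lay within the V321L range and the other 3 WT mice were below it. *Slc38a1* rose there (log2 fold change 0.86, SE 0.29, edgeR adjusted p = 0.0234), a call kept in 12 of 19 alternatives.

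In GCs *Slc38a1* was 37.7, 32.7, 35.9 and 39.5 CPM in WT and 57.7, 60.3, 71.0 and 67.1 CPM in V321L, without overlap. It rose by a small step on the TMM scale (log2 fold change 0.36, SE 0.12, edgeR adjusted p = 0.0134), which 14 of 20 alternatives kept. In the other excitatory neurons it was 34.3, 32.0, 38.1 and 33.1 CPM in WT and 61.9, 86.2, 90.7 and 40.5 CPM in V321L (log2 fold change 0.66, SE 0.24, edgeR adjusted p = 0.0419), but only 4 of 19 alternatives kept that call. In astrocytes or radial glia, where WT mice ranged from 21.6 to 301 CPM on 2 to 15 UMIs, the log2 fold change was 0.44 (SE 0.43, edgeR adjusted p = 0.424).

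Another 19 genes of glutamate and glutamine handling were taken as a fixed list. In GCs 9 were higher and 3 lower among 17 tested, and their median log2 fold change was 0.363, where that of all genes tested was 0.113. The counts were 6 and 1 of 12 in other excitatory neurons, 1 and 1 of 6 in GABAergic neurons, 4 and 1 of 7 in astrocytes or radial glia, 2 and 0 of 4 in OPCs and 1 and 0 of 5 in oligodendrocytes. Over all genes tested the shares called in either direction were 70.4% in GCs and, in the order of those classes, 50.5%, 36.7%, 42.8%, 23.1% and 32.4%, so these counts are no result about the list.

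*Gls2*, an enzyme of glutamate formation, was at 2.80 to 6.37 CPM in WT and 13.3 to 18.9 CPM in V321L GCs, and rose there (log2 fold change 1.26) and in other excitatory neurons (1.79). Among enzymes that join glutamate to the citric acid cycle, the cytosolic aspartate aminotransferase *Got1* rose in GCs (1.48), other excitatory neurons (1.40) and GABAergic neurons (1.29). Glutamate dehydrogenase *Glud1* rose in GCs (0.36) and in astrocytes or radial glia (1.01), and was not called in the other classes where it was tested. In astrocytes or radial glia *Glud1* was at 363 to 402 CPM in WT and 561 to 748 CPM in V321L.

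*Arl6ip5*, which encodes a protein that binds EAAC1 and lowers its transport, rose in GCs (2.07) and other excitatory neurons (1.95). Among carriers, *Slc38a2* (SNAT2) rose in OPCs (2.14), GCs (0.96), oligodendrocytes (0.84) and other excitatory neurons (0.71), and was not called in GABAergic neurons (0.77). *Slc1a4*, an exchanger of neutral amino acids, rose in astrocytes or radial glia (1.47), as did the mitochondrial glutamate carrier *Slc25a18* (1.17). Each of these rises was called by edgeR at an adjusted p under the threshold, on the background given above. All the genes named from the list rose, whereas 3 others of it fell in GCs, as counted above.

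Openness of the promoters had no part in naming the classes. It was counted as ATAC reads in peaks within 1 kb of the gene start that the matrices give, not of the RefSeq windows above. In astrocytes or radial glia against GCs of the same mice it was 150 ± 34 against 32.0 ± 8.1 CPM for *Slc1a2*, 180 ± 36 against 32.4 ± 4.2 CPM for *Glul* (higher in 8 of 8 mice each) and 87.3 ± 25.8 against 2.31 ± 2.07 CPM for *Slc38a3* (higher in 6 of 6 mice that had a peak). The log2 ratios were 2.18 ± 0.50, 2.42 ± 0.23 and 4.93 ± 0.90 (SD).

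It was lower in astrocytes or radial glia for *Slc1a1* (5.77 ± 6.24 against 29.9 ± 5.1 CPM), *Slc17a7* (3.72 ± 5.44 against 29.9 ± 9.4 CPM) and *Slc38a1* (14.1 ± 10.6 against 31.7 ± 7.4 CPM), in 8 of 8 mice each, with log2 ratios of -2.95 ± 1.80, -3.45 ± 1.61 and -1.65 ± 1.49. For *Slc17a7* the mean in astrocytes or radial glia was 0 CPM in WT and 7.45 CPM in V321L. At such low levels the size of a ratio depends on the pseudocount of 1 CPM, while its direction does not. The 2-sided exact sign-flip permutation test gave p = 0.0078 for each of these genes with n = 8, the smallest that 8 mice allow, and p = 0.0312 for *Slc38a3*, among 8 genes tested. For *Slc1a3* the promoter did not separate the classes (34.1 ± 27.0 against 16.6 ± 8.9 CPM, higher in 4 of 7 mice, exact permutation p = 0.703), unlike its RNA.

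Between genotypes, promoter levels overlapped for *Slc17a7* in GCs and for *Glul* in astrocytes or radial glia. The *Slc17a7* promoter in GCs was 24.1, 34.4, 24.8 and 31.9 CPM in WT and 35.8, 27.0, 14.9 and 46.4 CPM in V321L (exact permutation p = 0.743). The *Glul* promoter in astrocytes or radial glia was 230.3, 156, 143 and 155 CPM in WT and 227, 169, 153 and 205 CPM in V321L (exact permutation p = 0.571). Of 16 such tests the lowest exact permutation p was 0.0286, for *Slc17a7* in astrocytes or radial glia, where WT mice had 0 counts and V321L mice 1 to 4 counts each. The log2 difference between genotypes was 0.10 for *Slc17a7* in GCs and 0.14 for *Glul* in astrocytes or radial glia, where the RNA differed by 2.26 and 1.56.

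The genes whose profile over the 10 classes was most like that of each of the 9 were found among 12455 genes, by Pearson's r of log2(mean CPM + 1) over 10 classes, as a description. For *Glul* they were *A930005H10Rik* (0.971), *Mid1ip1* (0.951) and *Pon2* (0.942), and for *Slc1a2* they were *2810459M11Rik* (0.948), *Gm6145* (0.940) and *Grin2c* (0.924). For *Slc1a3* they were *Notch1* (0.965), *Rest* (0.961) and *Son* (0.945), for *Slc17a7* *Mmd* (0.968), *Gm2762* (0.964) and *Ankrd33b* (0.954), and for *Slc1a1* *Il1rapl1* (0.956), *Elfn2* (0.939) and *Zmym1* (0.925). For *Slc38a3* they were *Nkx2-2os* (0.954), *Cyp2j9* (0.947) and *Kank1* (0.941), and for *Slc38a1* *Intu* (0.915), *Clec16a* (0.904) and *Esrra* (0.898). The closest to *Slc17a6* was *Neu1* (0.915) and to *Slc17a8* *Gm44812* (0.931), both resting on few UMIs. The classes share libraries and depth, so no p is given.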

How the data were processed

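The authors aligned and counted the reads with Cell Ranger ARC 2.0.2 on mm10, as the matrix headers and the submitters' notes give, and deposited unfiltered matrices. These hold raw UMI counts of 32285 genes and ATAC counts per peak, neither of them normalized, and each library has a peak set of its own. RNA UMIs per library were 4326426 to 23582057.

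Barcodes were kept as nuclei above 500 UMIs, 250 genes and 500 ATAC counts, below the upper limits and mitochondrial limit of the study, and doublets above the mean + 2 SD of the Scrublet score of a library were removed (scanpy 1.11.5, Python 3.11.15). Leiden clusters at resolution 1 were named from fixed markers. The 9 genes took no part in clustering. UMI counts were summed per class and mouse. A class was tested where all 8 mice had at least 10 nuclei, with edgeR 4.0.16 in R 4.3.3 (filterByExpr, TMM, quasi-likelihood test, Benjamini-Hochberg threshold 0.05), and the tests were tested on simulated data. Oligodendrocytes, tested without WT M1, and the mixed cluster kept were alternatives chosen after seeing the data. DESeq2 1.42.0, other scalings, no filter, thinning, a marker gate per nucleus, resolution 2, subtraction of free RNA, a mitochondrial share under 1%, doublets kept, sex as a covariate, a replicate block and leaving out each mouse were the alternatives.

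Thinned shares used 500 UMIs per nucleus, which left out no nucleus. Intervals cover counting error only, and free-RNA limits are means over the mice of a genotype, given without an interval. The share of free RNA in a class was the lowest ratio, over marker lists of other classes, of the observed level to that in free RNA, and any true expression of those markers raises it, so it is an upper limit. Promoter counts took peaks overlapping 1 kb on each side of either end of the start interval that the matrices give for a gene. A pseudocount of 1 CPM was used, and libraries without such a peak gave no value. The genes named were the 9, the 19 further pathway genes (a gene of that list is not reported here by name) and the 3 genes of the highest correlation with each. The 9 genes and the lists were chosen with earlier results of these data known.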

Additional observations from a re-analysis of the deposited data

Results flagged for a closer look

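Within groups of 4 mice, 6 values among 58 groups looked at stood apart from the other 3 mice, where chance gives about 1 in 20 groups. *Slc1a1* in GCs was 184.8 CPM in V321L F2 against 155.1 to 157.8 CPM in the other V321L mice, and in GABAergic neurons it was 52.9 CPM in V321L M2 against 128.6 to 136.1 CPM. *Slc1a1* in OPCs was 259 CPM in V321L M2 against 302 to 307 CPM. *Slc38a1* in GABAergic neurons was 189.3 CPM in WT M1 against 57.6 to 74.0 CPM in the other WT mice. *Glul* in astrocytes or radial glia was 1590.2 CPM in V321L F2 against 841 to 942 CPM, and in OPCs it was 55.8 CPM in V321L M1 against 86.4 to 89.9 CPM. The rise of *Glul* in astrocytes or radial glia was called without V321L F2 too.

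The genotype effect on *Glul* differed between astrocytes or radial glia and GCs by 1.43 on the log2 scale, where the median difference over all genes was 0.632. The test compared the class difference within each mouse between WT and V321L mice. With library sizes as the only scaling the difference for *Glul* was 0.63 and was not called (edgeR adjusted p = 0.438), and *Glul* in GCs is near or under the limit that free RNA allows.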

How the results depend on the processing

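Of 508 alternative values of the genes' log2 fold changes, 451 kept their side of the threshold, 41 lost the call, 12 gained one and 4 turned with a call before or after. A change of direction with no call on either side was counted among the 451. An alternative in which a gene had no adjusted p, as when it failed the filter on low counts, gave no value and is not among the 508. With library sizes as the only scaling, *Slc1a1* (0.34) and *Slc1a3* (0.46) turned in GCs, and the difference of the *Glul* effect between classes was 0.63. After subtraction of free RNA, which set WT GCs to 0, *Slc1a2* (11.27) and *Slc1a3* (10.28) turned in GCs.

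Genes called among the 9, against 4 in other excitatory neurons, were 1 after thinning, 2 after free-RNA subtraction, with a mitochondrial share under 1% and with doublets kept, and 2 to 4 without 1 mouse. Against 1 in GABAergic neurons they were 2 with library sizes only, RLE factors, the marker gate, free-RNA subtraction or a mitochondrial share under 1%, 0 with DESeq2, no filter or thinning, and 0 to 2 without 1 mouse. Against 2 in astrocytes or radial glia they were 1 after thinning or with a mitochondrial share under 1%, 4 with the mixed cluster kept, and 1 to 2 without 1 mouse, 1 being without WT F1. Against 1 in OPCs they were 0 with DESeq2, no filter or thinning, and 0 to 1 without 1 mouse. Against 2 in oligodendrocytes they were 1 after thinning, with the gate, with free-RNA subtraction or with a mitochondrial share under 1%. The causes were not tested. *Slc17a7* in GCs and other excitatory neurons and *Glul* in astrocytes or radial glia and oligodendrocytes kept their calls in every alternative run.

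Calls over all genes after thinning were 4555 in GCs, 463 in other excitatory neurons, 44 in GABAergic neurons, 336 in astrocytes or radial glia, 51 in OPCs and 323 in oligodendrocytes, against 8696, 4169, 1362, 1052, 326 and 731. With no filter they were 2461 in GABAergic neurons, 2295 in astrocytes or radial glia and 771 in OPCs. They were 1685 with DESeq2, 541 with a mitochondrial share under 1% and 2261 with the mixed cluster kept in astrocytes or radial glia, 120 and 168 with a mitochondrial share under 1% and free-RNA subtraction in OPCs, and 875 with the gate in GABAergic neurons. In oligodendrocytes they were 1302 with the gate, 1720 at resolution 2, 1929 with doublets kept, 469 with free-RNA subtraction, 245 with a mitochondrial share under 1%, and 456 and 479 without V321L F1 and F2. For the difference between classes they were 404, and 46 with library sizes only and 58 with no filter.

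Library sizes only moved the split of higher and lower calls from 4767 and 3929 to 6672 and 2182 in GCs, from 2329 and 1840 to 3396 and 875 in other excitatory neurons and from 745 and 617 to 940 and 347 in GABAergic neurons. DESeq2 moved it from 622 and 430 to 1341 and 344 in astrocytes or radial glia, from 211 and 115 to 396 and 90 in OPCs and from 450 and 281 to 442 and 157 in oligodendrocytes.

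Deviations from the genotype means in GCs had r of 0.0434, 0.260, -0.138 and -0.00749 between mice labelled F1, F2, M1 and M2. Pairs with different labels ranged from -0.301 to 0.307. Same-labelled mice share sex, and whether they share processing was not tested. The replicate block left 3 calls among the 9 genes in GCs, 3 in other excitatory neurons, where *Slc38a1* was lost, 1 in GABAergic neurons, 2 in astrocytes or radial glia and 1 in OPCs. At full depth the share of GCs with a UMI differed for 6 genes after adjustment for 9 tests, against 0 at 500 UMIs, where 2 had an unadjusted exact permutation p under 0.05. The marker gate moved *Slc1a1* in OPCs to 157 CPM and *Slc1a2* in astrocytes or radial glia to 6114 CPM. The share at 1000 UMIs gave no value in astrocytes or radial glia and OPCs, since too few nuclei reach that depth. WT M1, with 14 astrocytes or radial glia and 6 oligodendrocytes, limits the precision of both classes.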
